A study of Mus musculus with 3 samples.

Results

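The ATP-binding cassette (ABC) genes of adult lung endothelial cells (ECs) were the rows of the deposited expression table whose symbol reads *Abc*, a subfamily letter from a to g, a number and at most 1 further letter. This rule, which uses the symbol and no measured value, gave 50 members among 24346 genes: 16 in subfamily A, 10 in B, 10 in C, 4 in D, 1 in E, 3 in F and 6 in G. *Tap1*, *Tap2* and *Cftr* encode ABC proteins too but carry other symbols, so they are given separately. The study compared the vasculature of kidney with that of other organs through development, and the samples analysed here are its adult lung libraries, called S38, S44 and S52. All 3 came from wild type male C57BL/6J mice aged 6 to 8 weeks that had received an antibody to VE-cadherin through the blood before organ harvest, and the cells were used fresh, without culture. The sorted population was positive for CD31 and VE-cadherin and negative for CD45 and podoplanin, a gate meant to leave out leukocytes and lymphatic ECs. Of 5 leukocyte markers, 4 still had a mean of 1 FPKM or more. There was 1 condition, so no groups were compared, and nothing in the labels says whether the libraries came from separate animals. Levels are FPKM, fragments scaled to gene length and library size, which allows genes to be compared per length, and members with a mean of 1 FPKM or more count as detected.

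ABC proteins bind and hydrolyse ATP, and most use that energy to move a substrate through a membrane: sterols and phospholipids, drugs and conjugates, bile salts, heme precursors, fatty acids or peptides. Members of subfamilies E and F lack a membrane domain and act on ribosomes and translation. In endothelium the family is best known for the efflux pumps P-glycoprotein, made in mice from *Abcb1a* and *Abcb1b*, and the breast cancer resistance protein, made from *Abcg2*, which face the blood and return lipophilic compounds to it. In lung, *Abca3* is best known from alveolar type 2 cells, where it loads phospholipid into the lamellar bodies that store surfactant.

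The libraries had like medians of endothelial markers and differed in markers of several other cell types. Depth, estimated from the step between low FPKM values, was about 38300000, 38900000 and 33900000 fragments for S38, S44 and S52. The median of 8 endothelial markers was 378, 393 and 379 FPKM in S38, S44 and S52, and 2 of the 8 were lowest in S52. Single markers of this list differed by up to 1.97-fold: *Kdr* (380, 360 and 237 FPKM) was lowest in S52, as was *Cldn5* (1486, 1732 and 1029 FPKM). *Emcn* (156, 181 and 267 FPKM) was highest there, as was *Erg* (59.2, 43.1 and 84.8 FPKM). S52 stood apart in the other lists: it was lowest for 6 of 6 alveolar type 2, 5 of 5 platelet, 5 of 5 leukocyte, 5 of 5 macrophage, 4 of 4 erythroid and 3 of 4 airway markers, but for 0 of 6 mural markers, which were all lowest in S44. Ratios over 2 between libraries are given for detected members with and without S52.

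Of the 50 members, 27 (54%) were detected, beside 48.3% of all genes in the table. Without S52 the number was 26, since *Abca8b* then had a mean under 1 FPKM. At 10 FPKM or more there were 12 members (24%), beside 25.7% of all genes. No member reached a mean of 100 FPKM, a level that 3.64% of all genes passed. Another 15 members lay between 1 and 10 FPKM, 10 between 0.1 and 1 FPKM and 4 above 0 but under 0.1 FPKM, and 9 (18%) were listed at 0 in every library, beside 29.5% of all genes. The median over all 50 was 2.16 FPKM, against 0.784 FPKM over all genes, and over the detected it was 7.88 FPKM for members and 11.2 FPKM for genes. The family was thus mostly a set of low to middle transcripts, in shares near the background of the whole table at 1 and 10 FPKM. Across the 50 members Spearman's rho of S38 was 0.986 with S44 and 0.971 with S52, and the rho of S44 with S52 was 0.961. These describe members within the same 3 libraries and include those listed at 0.

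**Figure D1:**
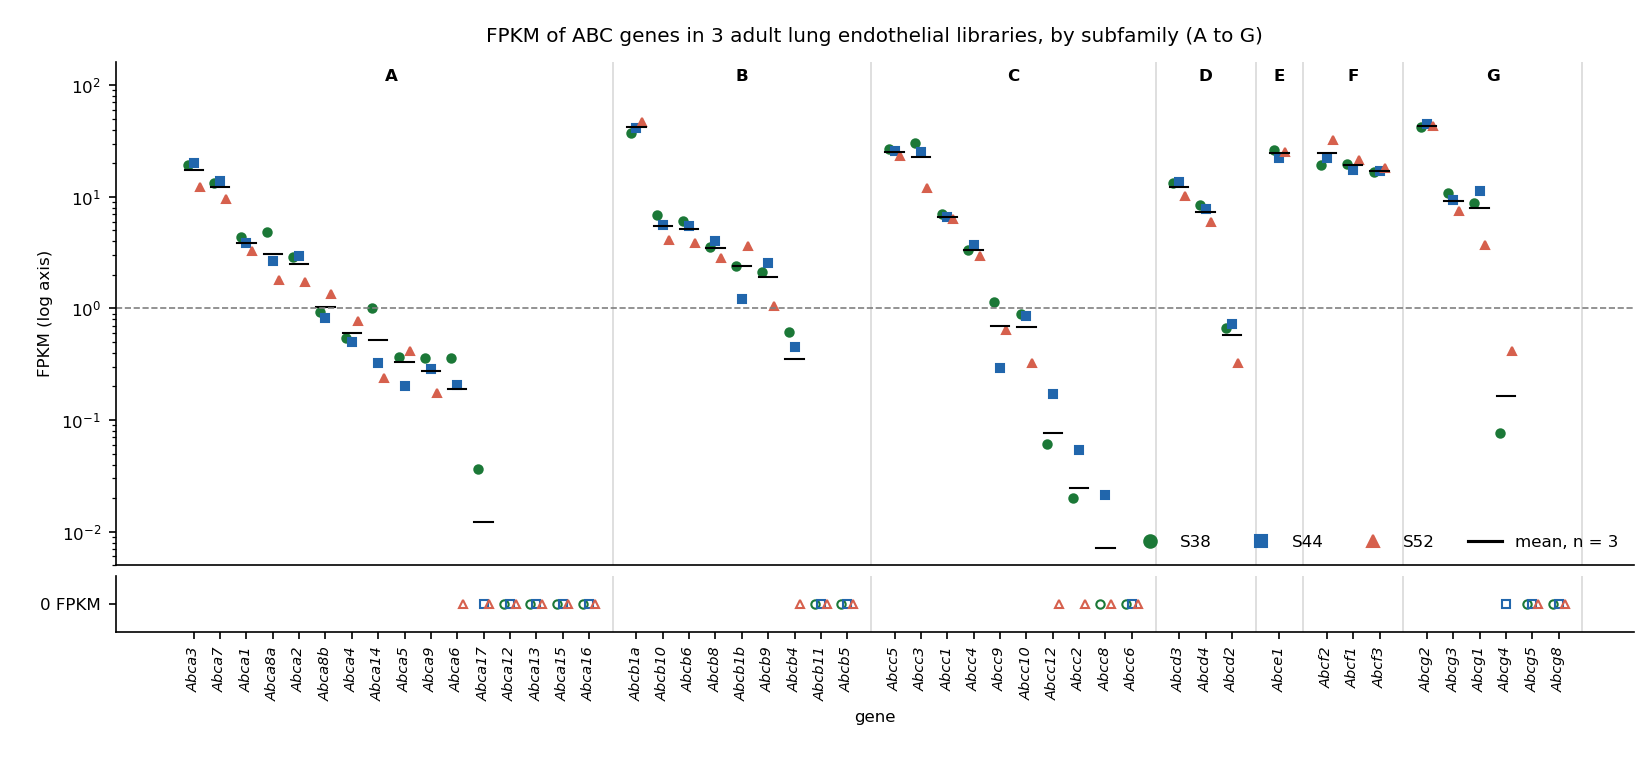
FPKM on a log axis (values of 0 in the strip below) for 48 of the 50 ABC genes, grouped by subfamily and ordered by mean. Points are the 3 libraries, black bars their mean and the dashed line 1 FPKM. *Abcg2* and *Abcb1a* sit highest, at means of 43.3 and 42.0 FPKM, and 9 genes have only open symbols at 0.

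The summed FPKM of the family was 364 (S38), 355 (S44) and 326 (S52), or 348 ± 20.0 FPKM (SD, n = 3 libraries), and S44 was the lowest once each library was set to the same sum. The 5 highest members, *Abcg2*, *Abcb1a*, *Abcc5*, *Abce1* and *Abcf2*, held 45.9% of the mean sum, and without S52 the 5 highest held 44.9%. By subfamily, B held 19.2% of the sum, F 17.6%, G 17.4%, C 17.0%, A 12.0%, D 9.74% and E 7.11%. Subfamily A was the largest in genes but had 6 of 16 detected, whereas all 3 members of F, the only member of E and 3 of 4 in D were. In B 7 of 10 were detected, in C 4 of 10 and in G 3 of 6. The highest member was *Abca3* in A, *Abcb1a* in B, *Abcc5* in C, *Abcf2* in F and *Abcg2* in G. When the detected members are ranked by mean, the order of neighbours was weak: of 26 adjacent pairs, 7 kept their order in all 3 libraries and 2 had ranges that did not overlap, *Abcb1a* above *Abcc5* among them.

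Efflux pumps for drugs, conjugates and nucleotides made up the largest part of the family. The 9 genes of this group, 7 of them detected, summed to 151 (S38), 149 (S44) and 139 FPKM (S52), or 42.0% of the family sum. *Abcg2* (chr6:58584523-58695676, forward strand, mm10) was at 42.3 FPKM (S38), 44.5 FPKM (S44) and 43.1 FPKM (S52). No other detected member was as even: its highest library stood 1.05-fold above its lowest, a coefficient of variation of 2.61%. *Abcb1a* (chr5:8660077-8748575, forward strand) was at 37.2, 41.7 and 47.1 FPKM in the same order, with S52 the highest. *Abcg2* over *Abcb1a* was 1.14 (S38), 1.07 (S44) and 0.915 (S52), so their order was not the same in every library.

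*Abcb1b*, the other mouse gene for P-glycoprotein, lay 49.6 kb downstream of *Abcb1a* on the same strand and was far lower, at 2.41 FPKM (S38), 1.21 FPKM (S44) and 3.63 FPKM (S52). The lowest library was S44 and the highest S52, and no value approached those of *Abcb1a*. *Abcb1a* over *Abcb1b* was 15.4 (S38), 34.3 (S44) and 13.0 (S52) (20.9 ± 11.7, SD, n = 3). Without S44, the library with the fewest estimated *Abcb1b* fragments (196, against 381 in S38 and 510 in S52), the mean ratio was 14.2. *Abcb4*, the next gene in the row and a phospholipid floppase of bile canaliculi, was at 0.611, 0.450 and 0 FPKM. The order *Abcb1a*, *Abcb1b*, *Abcb4* from high to low held in every library, along 3 neighbouring genes of 1 strand.

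The 2 P-glycoprotein genes are near copies in places, so some of their reads cannot be told apart. Of the 51-base windows of the longest *Abcb1a* transcript, the length of 1 read, 15.3% also occur in *Abcb1b*, and 17.7% of the *Abcb1b* windows occur in *Abcb1a*. The longest common run is 338 bases within the coding sequence. The window below, from that run, covers bases 1713 to 1763 of the *Abcb1a* transcript and 1680 to 1730 of *Abcb1b*, and the 15 capitals encode the ABC signature motif, which takes part in ATP binding. It is shown because a read from it matches both genes in full, so part of the *Abcb1b* value depends on how shared fragments were divided.
*Abcb1a* and *Abcb1b*, GENCODE M21 transcripts: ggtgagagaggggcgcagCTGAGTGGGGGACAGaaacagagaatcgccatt
Most of each transcript is unshared, 81.6% in *Abcb1a* and 80.7% in *Abcb1b* counting windows found in any other gene. Whether the division of shared fragments contributed to the ratio was not tested.

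The conjugate pumps of subfamily C ranked next. *Abcc5*, an exporter of cyclic nucleotides, was even, at 27.0 FPKM (S38), 25.5 FPKM (S44) and 23.2 FPKM (S52). *Abcc3*, an exporter of organic anions and bile acid conjugates, was not. It was at 30.5 FPKM (S38), 25.2 FPKM (S44) and 12.0 FPKM (S52), a ratio of 2.54 between highest and lowest library, with S52 alone low. Among the 12 members at 10 FPKM or more it was the only one past 2-fold, and without S52 its values lay within 1.21-fold. In bulk RNA, fewer cells of a type and less RNA per cell cannot be told apart. *Abcc1*, the leukotriene and glutathione conjugate pump, was steady at 7.05, 6.61 and 6.27 FPKM. *Abcc4*, which exports cyclic nucleotides and is also known from platelets, was at 3.37 FPKM (S38), 3.72 FPKM (S44) and 2.97 FPKM (S52). Platelet markers summed to 1709, 1357 and 40.2 FPKM in those libraries, and the S52 value of *Abcc4* was 88.3% of that of S38 and 79.9% of that of S44. The part of platelet RNA in the *Abcc4* values was not tested. *Abcc10* stayed just under the detection threshold at 0.688 FPKM, lowest in S52, and *Abcc2*, a pump of apical membranes in liver and kidney, had a mean of 0.0246 FPKM.

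The 4 members without a membrane domain were all detected, and each had a mean above 10 FPKM. Together they held 24.7% of the family sum, at 82.0 FPKM (S38), 78.7 FPKM (S44) and 97.0 FPKM (S52). *Abce1*, which recycles ribosomes after termination, was at 26.5, 22.2 and 25.5 FPKM. *Abcf1*, a partner of translation initiation, was at 19.7, 17.3 and 21.4 FPKM. *Abcf3* was nearly constant at 16.5, 16.9 and 17.9 FPKM, the second most even of the detected members after *Abcg2*. *Abcf2* varied most of the 4, at 19.3 FPKM (S38), 22.3 FPKM (S44) and 32.2 FPKM (S52), where it was the highest of the 4. None of these 4 had its lowest value in S52, where 66.7% of detected members and 46.3% of all detected genes had theirs. That also held after the libraries were rescaled to a median-ratio factor or to the same sum, although the library with the highest group sum moved from S52 to S38 with the latter.

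**Figure D2:**
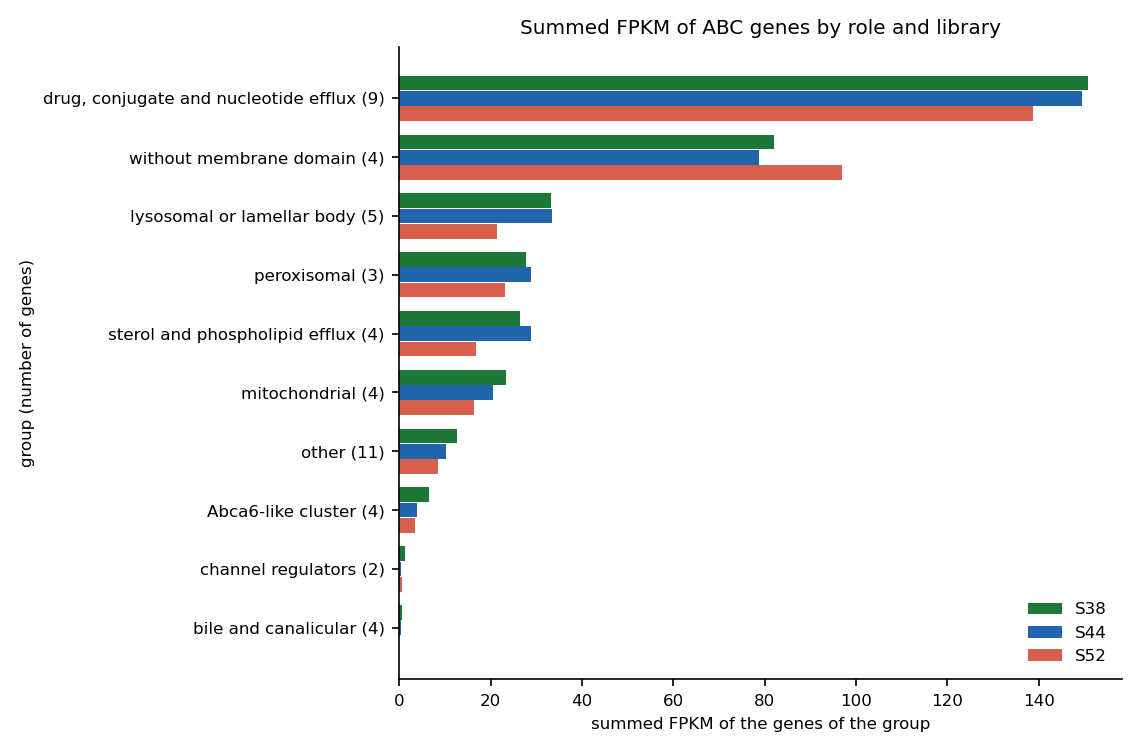
Summed FPKM of the ABC genes in each of 10 groups by role, as bars from 0, for each library, with the number of genes in brackets. Efflux pumps reach 139 to 151 FPKM, and the genes without a membrane domain are the largest group with S52 on top, at 97.0 FPKM.

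Of 4 sterol and phospholipid exporters, the 3 detected had their lowest values in S52, as did 46.3% of all detected genes. *Abca7*, a phospholipid exporter, was at 13.2 FPKM (S38), 13.8 FPKM (S44) and 9.52 FPKM (S52). *Abca1*, which passes cholesterol to apolipoprotein A-I, was at 4.41, 3.85 and 3.24 FPKM. *Abcg1*, which passes cholesterol to high density lipoprotein and is abundant in alveolar macrophages, was at 8.79, 11.2 and 3.67 FPKM. *Abcg1* differed most: its ratio of 3.04 between highest and lowest library was the largest of all detected members, and without S52 it was 1.27. Macrophage markers summed to 74.7 FPKM (S38), 55.4 FPKM (S44) and 20.7 FPKM (S52). All 5 were lowest in S52, but to unequal degrees, and 2 of the 5 were detected. *Chil3* carried most of the fall, at 55.7, 26.1 and 3.28 FPKM, while *Cd68* was at 17.0, 27.4 and 16.7 FPKM. *Marco*, a scavenger receptor of alveolar macrophages, was at 0.461, 0.561 and 0 FPKM. The part of macrophage RNA in the *Abcg1* values was not tested. *Abcg4*, the close relative of *Abcg1* known from neurons, was at 0.0759, 0 and 0.415 FPKM. Of 8 partner genes of sterol efflux, all were detected, with a median of 35.1 FPKM (S38), 39.1 FPKM (S44) and 30.0 FPKM (S52). *Scarb1*, the lipoprotein receptor of the list, was highest at 158 ± 18.0 FPKM (SD, n = 3), and *Nr1h2*, which encodes the sterol-sensing receptor LXR-beta, was at 54.4 ± 7.30 FPKM (SD, n = 3).

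Members of lysosomes and lamellar bodies were led by *Abca3*. It was at 19.4 FPKM (S38), 19.9 FPKM (S44) and 12.4 FPKM (S52) (17.2 ± 4.22 FPKM, SD, n = 3), with a ratio of 1.61 between highest and lowest library, or 1.03 without S52. Alveolar type 2 markers differed far more over the same libraries: the 6 summed to 3814, 3197 and 767 FPKM, and *Sftpc*, which encodes surfactant protein C, was at 3333 FPKM (S38), 2862 FPKM (S44) and 658 FPKM (S52). The S52 value of *Abca3* was 63.8% of that of S38 and 62.0% of that of S44, where for *Sftpc* these shares were 19.7% and 23.0%. How much of the *Abca3* value came from alveolar type 2 RNA was not tested. *D330041H03Rik*, a transcript of the opposite strand that overlaps 9.75% of the exonic bases of *Abca3*, was at 19.4, 18.4 and 7.51 FPKM. These libraries carry no strand information, so reads from the overlap cannot be assigned to either gene. *Abca2*, a lysosomal lipid transporter, was at 2.87, 2.98 and 1.73 FPKM. *Abcb9*, a lysosomal peptide transporter, was at 2.12 FPKM (S38), 2.54 FPKM (S44) and 1.05 FPKM (S52), a ratio of 2.43, or 1.20 without S52. *Abcd4*, which takes part in the exit of cobalamin from lysosomes, was at 8.43, 7.78 and 5.89 FPKM. All 4 detected members of the group were lowest in S52, as were 46.3% of all detected genes. The group sum was 33.1, 33.4 and 21.4 FPKM.

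*Abca3* has a neighbour that shows how sharply adjacent members could differ. *Abca17* begins 882 bp away and runs in the opposite direction, so the pair is arranged head to head on chromosome 17. *Abca3* had a mean of 17.2 FPKM and *Abca17* one of 0.0122 FPKM, from about 7 fragments in S38 and none in S44 or S52. Their start regions are shown because both hold many CG pairs while their levels ranked 8 and 40 among the 50 members. Each is 250 bases before to 50 bases after a RefSeq transcript start (GRCm38.p6), read along the gene's own strand, with CG pairs in capitals.
*Abca3*, chr17:24351773-24352072, forward strand: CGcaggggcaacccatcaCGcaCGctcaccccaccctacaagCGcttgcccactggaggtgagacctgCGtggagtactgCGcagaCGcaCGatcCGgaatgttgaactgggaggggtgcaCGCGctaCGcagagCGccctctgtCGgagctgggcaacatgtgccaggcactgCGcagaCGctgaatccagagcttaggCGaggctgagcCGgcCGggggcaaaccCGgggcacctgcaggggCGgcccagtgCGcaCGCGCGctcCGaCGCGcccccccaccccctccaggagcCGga
*Abca17*, chr17:24351010-24351309, reverse strand: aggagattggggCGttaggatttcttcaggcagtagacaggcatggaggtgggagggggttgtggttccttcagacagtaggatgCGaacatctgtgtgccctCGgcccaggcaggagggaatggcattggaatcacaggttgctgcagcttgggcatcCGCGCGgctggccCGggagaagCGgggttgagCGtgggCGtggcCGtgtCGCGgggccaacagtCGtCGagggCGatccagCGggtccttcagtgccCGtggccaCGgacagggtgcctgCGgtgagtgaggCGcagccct
The *Abca3* window holds 29 CG pairs at a GC content of 69.7%, and the *Abca17* window 21 CG pairs at 64.7%. The *Abca3* window holds the letters GGGCGG once and neither CCAAT nor TATAAA, searched on both strands, and the *Abca17* window holds CCAAT 2 times and neither of the others.

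Mitochondrial and peroxisomal members were detected almost throughout, at moderate levels. All 4 of the mitochondrial group and 2 of the 3 of the peroxisomal group passed 1 FPKM. *Abcb10*, which is needed for heme synthesis in red cell precursors, was at 6.87 FPKM (S38), 5.56 FPKM (S44) and 4.11 FPKM (S52), lowest in S52 by 1.67-fold. Erythroid markers summed to 337, 469 and 94.5 FPKM, also lowest in S52, though highest in S44 and not in S38. Most of the difference in this sum was *Hbb-bs*, listed at 185 FPKM (S38), 308 FPKM (S44) and 0.00319 FPKM (S52). *Hba-a1* differed less, at 147, 147 and 91.0 FPKM. The part of erythroid RNA in the *Abcb10* values was not tested. *Abcb6*, a porphyrin transporter, was at 6.06, 5.53 and 3.85 FPKM, but 90.2% of its 51-base windows also belong to *Gm29253*, an overlapping transcript of the same strand, so its value is uncertain. *Abcb8* was at 3.56, 4.04 and 2.83 FPKM. The 5 partner genes of mitochondrial iron and heme handling were all detected, with medians of 13.9, 15.8 and 13.3 FPKM, and *Fech*, the last enzyme of heme synthesis, was at 13.9 FPKM (S38), 13.0 FPKM (S44) and 6.63 FPKM (S52). Of the peroxisomal transporters, *Abcd3*, an importer of branched chain and bile acid precursors, was at 13.3 FPKM (S38), 13.6 FPKM (S44) and 10.1 FPKM (S52). *Abcd2*, an importer of fatty acids into peroxisomes, averaged 0.574 FPKM and was lowest in S52. The 5 partner genes of peroxisomal oxidation were all detected at medians of 26.1, 26.7 and 27.4 FPKM.

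The regulators of potassium channels and the genes of the chromosome 11 cluster were low and uneven. *Abcc9* encodes the sulfonylurea receptor SUR2 and is known from mural cells, the pericytes and smooth muscle of vessels. It was at 1.14 FPKM (S38), 0.292 FPKM (S44) and 0.644 FPKM (S52), just under the detection threshold on average, with S44 lowest. Mural markers summed to 110, 58.1 and 110 FPKM, and all 6 were lowest in S44, among them *Kcnj8*, the channel pore that pairs with *Abcc9*, at 1.89, 0.795 and 1.79 FPKM. Most of this sum was *Acta2*, at 90.3, 46.7 and 79.7 FPKM. The median of the list was 5.37, 2.56 and 8.17 FPKM, highest in S52, where *Abcc9* was highest in S38. The part of mural RNA in the *Abcc9* values was not tested. *Abcc8*, which encodes SUR1, had a value above 0 in S44 alone, at 0.0213 FPKM, and its pore gene *Kcnj11* was listed at 0 in all 3.

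A row of 5 members of subfamily A stands on the reverse strand of chromosome 11, in the order *Abca8b*, *Abca8a*, *Abca9*, *Abca6* and *Abca5* from low to high coordinates. *Abca8a* was at 4.84 FPKM (S38), 2.63 FPKM (S44) and 1.79 FPKM (S52), a ratio of 2.70 between highest and lowest, or 1.84 without S52. Its neighbour *Abca8b* was at 0.922, 0.823 and 1.34 FPKM, highest in S52, and was the member next above the threshold. *Abca8a* over *Abca8b* was therefore 5.25 (S38), 3.20 (S44) and 1.34 (S52). Estimated fragments were 1009, 559 and 332 for *Abca8a* and 256, 232 and 330 for *Abca8b*, and the 2 genes share 1.83% of the *Abca8a* windows. *Abca9* was at 0.362, 0.284 and 0.173 FPKM and *Abca6* at 0.363, 0.205 and 0 FPKM, so 3 of the 5 had S38 highest and S52 lowest. Fibroblasts are among the cells known to express this cluster, and fibroblast markers summed to 75.7 FPKM (S38), 57.6 FPKM (S44) and 44.2 FPKM (S52), with 2 of 5 lowest in S52. The fall of this sum came mostly from *Dcn*, at 47.4, 35.5 and 19.8 FPKM. The median of the list was 7.13, 5.86 and 7.72 FPKM, highest in S52. Their part in the cluster's values was not tested. *Abca5*, a lysosomal member at the end of the row, was at 0.367, 0.201 and 0.416 FPKM.

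**Figure D3:**
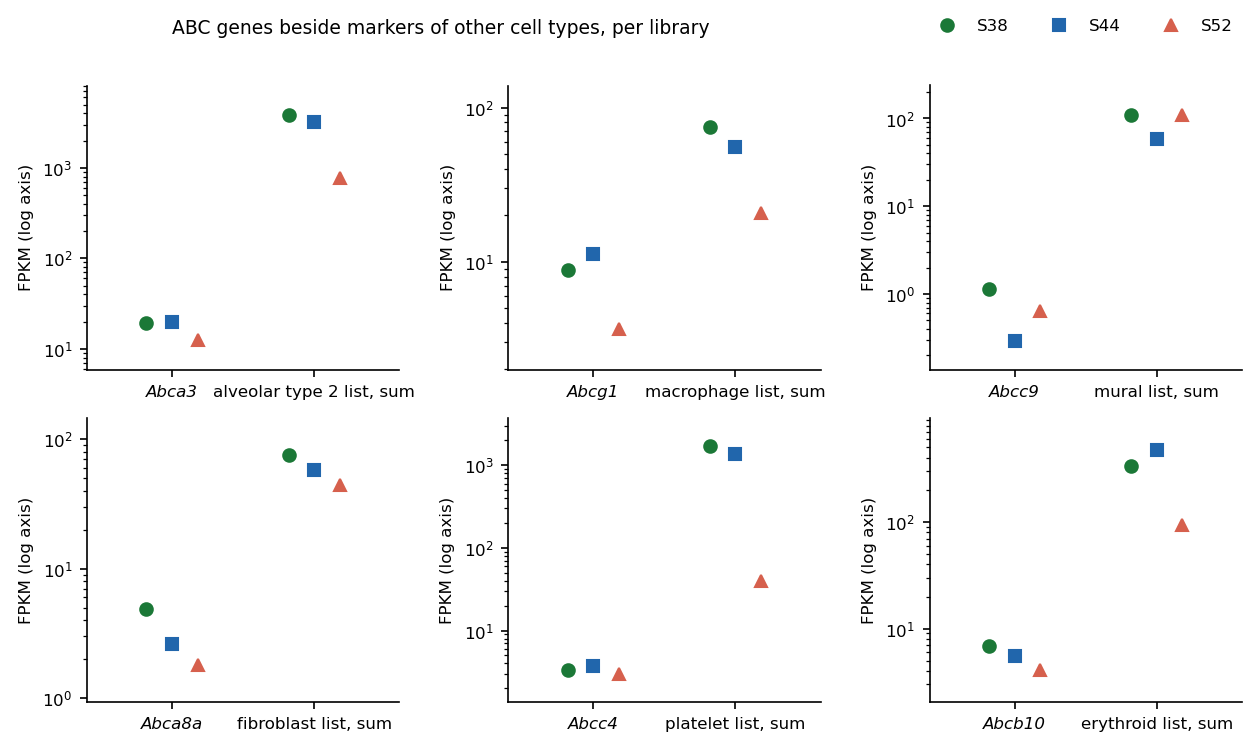
FPKM on log axes of 6 ABC genes, each beside the summed FPKM of a marker list of another cell type, with a point per library. *Abca3* spans 12.4 to 19.9 FPKM where alveolar type 2 markers span 767 to 3814 FPKM, *Abcg1* and macrophage markers are lowest in S52, and *Abcc9* and mural markers are lowest in S44.

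Genes of bile and canalicular membranes were the least represented. *Abcb11*, the bile salt export pump, and *Abcg5* and *Abcg8*, which together form the sterol pump of liver and gut, were listed at 0 in all 3 libraries. The others at 0 throughout were *Abca12*, *Abca13*, *Abca15*, *Abca16*, *Abcb5* and *Abcc6*. A listed 0 may come from an estimate that failed. Where it stands for no fragments, the limit of 3 fragments depends on transcript length. That limit ran from 0.00495 FPKM for *Abca13* in S38, with a transcript of 16011 bp, to 0.0404 FPKM for *Abcg5* in S52, with 2351 bp, counting error only. *Abcg5* (chr17:84658234-84683011, reverse strand) and *Abcg8* (chr17:84676302-84700333, forward strand) overlap in opposite directions and share 82 exonic bases. The *Abcg5* start region, shown for contrast with the CG-rich windows above, holds 5 CG pairs at a GC content of 52.3%, and 1 TATAAA and 1 CCAAT.
*Abcg5*, chr17:84682962-84683261, reverse strand, CG pairs in capitals: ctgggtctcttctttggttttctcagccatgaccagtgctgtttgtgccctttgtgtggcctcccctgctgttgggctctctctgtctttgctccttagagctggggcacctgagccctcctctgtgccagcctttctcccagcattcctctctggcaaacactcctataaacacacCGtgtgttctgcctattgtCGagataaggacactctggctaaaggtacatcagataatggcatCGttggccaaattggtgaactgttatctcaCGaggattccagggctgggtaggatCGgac
*Abca14*, which lies beside *Abca15* and *Abca16* on chromosome 7, was not at 0: it was at 1.02 FPKM (S38), 0.323 FPKM (S44) and 0.236 FPKM (S52). *Abcg3*, a rodent relative of *Abcg2*, was the exception among the 11 genes with no assigned role and was at 10.9, 9.31 and 7.46 FPKM. *Abcg2* exceeded it 3.87-fold in S38, 4.78-fold in S44 and 5.78-fold in S52.

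Start windows rich in CG pairs were more frequent in detected than in undetected members, as in all genes. Undetected members had such windows more often than undetected genes did. RefSeq start windows matched 38 of the 50 members and 17191 genes of the table, and for a gene with several windows the one with most CG pairs was taken. At least 10 CG pairs were found in 18 of 20 detected members (90%), beside 85.9% of all detected genes, and in 9 of 18 members below 1 FPKM (50%), beside 31.8% of all genes below it. *Abca8a*, with 4 CG pairs, and *Abcb1a*, with 2, were the detected exceptions. For *Abcb1a* the RefSeq start lies 93.0 kb upstream of the GENCODE start, and which start the lung transcripts used was not tested. GGGCGG was present in 70% of the detected members' windows and 67.9% of those of all detected genes, CCAAT in 25% and 37.6%, and TATAAA in 10% and 6.53%, on both strands. A match is a match of letters and does not show that a factor binds.

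**Figure D4:**
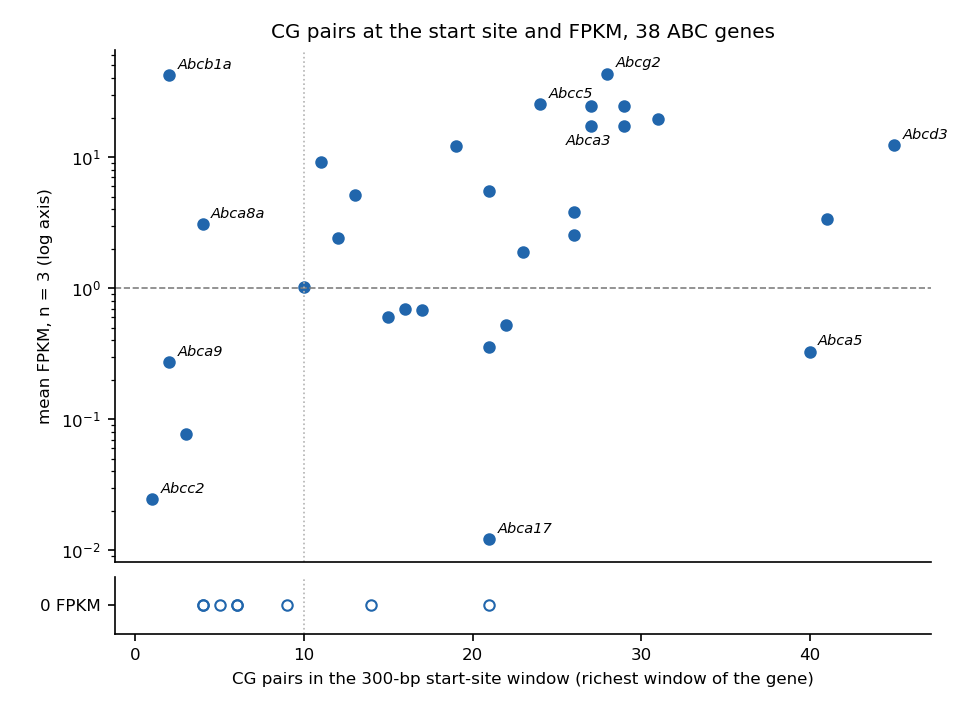
Mean FPKM on a log axis (values of 0 in the strip below) against the number of CG pairs in the start-site window, for 38 ABC genes. The dashed line is 1 FPKM and the dotted line 10 CG pairs. *Abcb1a* is at upper left with 2 CG pairs and 42.0 FPKM, and *Abca17* at lower right of centre with 21 CG pairs and 0.0122 FPKM.

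Variation between libraries was close to that of all genes, apart from the place of S52. The median coefficient of variation of the detected members was 17.9%, beside 17.6% over all detected genes, and the median ratio of highest to lowest library was 1.43, beside 1.40. A ratio over 2 was seen in 5 of 27 detected members (18.5%), beside 20.1% of detected genes: *Abcg1* (3.04), *Abcb1b* (2.99), *Abca8a* (2.70), *Abcc3* (2.54) and *Abcb9* (2.43). Their lowest libraries held an estimated 124 fragments for *Abcb9* to 1974 fragments for *Abcc3*. Without S52 none of 26 members had a ratio over 2, with *Abcb1b* nearest at 1.98, beside 5.06% of all genes. Without S38 there were 4 of 27, all but *Abca8a*, beside 13.5% of genes. Without S44 there were 4 of 27, all but *Abcb1b*, beside 14.8% of genes. At the even end stood *Abcg2* (1.05), *Abcf3* (1.09) and *Abcc1* (1.12).

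S52 was the lowest library for 18 of 27 detected members (66.7%), beside 46.3% of detected genes. S44 was lowest for 5 (18.5%), beside 28.4%, and S38 for 4 (14.8%), beside 25.4%. The share for S52 was above the background, and with 1 condition and 3 libraries no test of that difference was made. With median-ratio scaling S52 was lowest for 17, beside 39.9% of genes, and with each library at the same sum for 16, beside 40.6%. Among the 12 members at 10 FPKM or more, as deposited, S52 was lowest for 6. The share of all genes at that level was not computed. The median log2 ratio of S52 to S38 was -0.33 over the 27 members, beside -0.09 over all detected genes above 0 in both, and that of S52 to S44 was -0.32, beside -0.06. For S38 to S44 it was 0.08, beside 0.04. The log2 ratio of S52 to S38 ran from -1.43 (*Abca8a*) to 0.74 (*Abcf2*), and that of S52 to S44 from -1.60 (*Abcg1*) to 1.58 (*Abcb1b*). The members above S38 and S44 in S52 were *Abcb1b*, *Abcf2*, *Abca8b*, *Abcb1a*, *Abcf1* and *Abcf3*, 3 of which lack a membrane domain and 2 of which encode P-glycoprotein. With each library at the same sum 4 of these 6 remained above both, without *Abcf1* and *Abcf3*. With median-ratio scaling there were 8, the same 6 with *Abce1* and *Abcg2*. As deposited, 7 of 27 members were higher in S52 than in S38, beside 43.4% of genes. Against S44 there were 8, beside 44.9% of genes. The share of all genes highest in S52 was not computed. Markers of platelets, alveolar type 2 cells, leukocytes, macrophages and erythroid cells were also lowest in S52, and their part in the members' order was not tested.

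**Figure D5:**
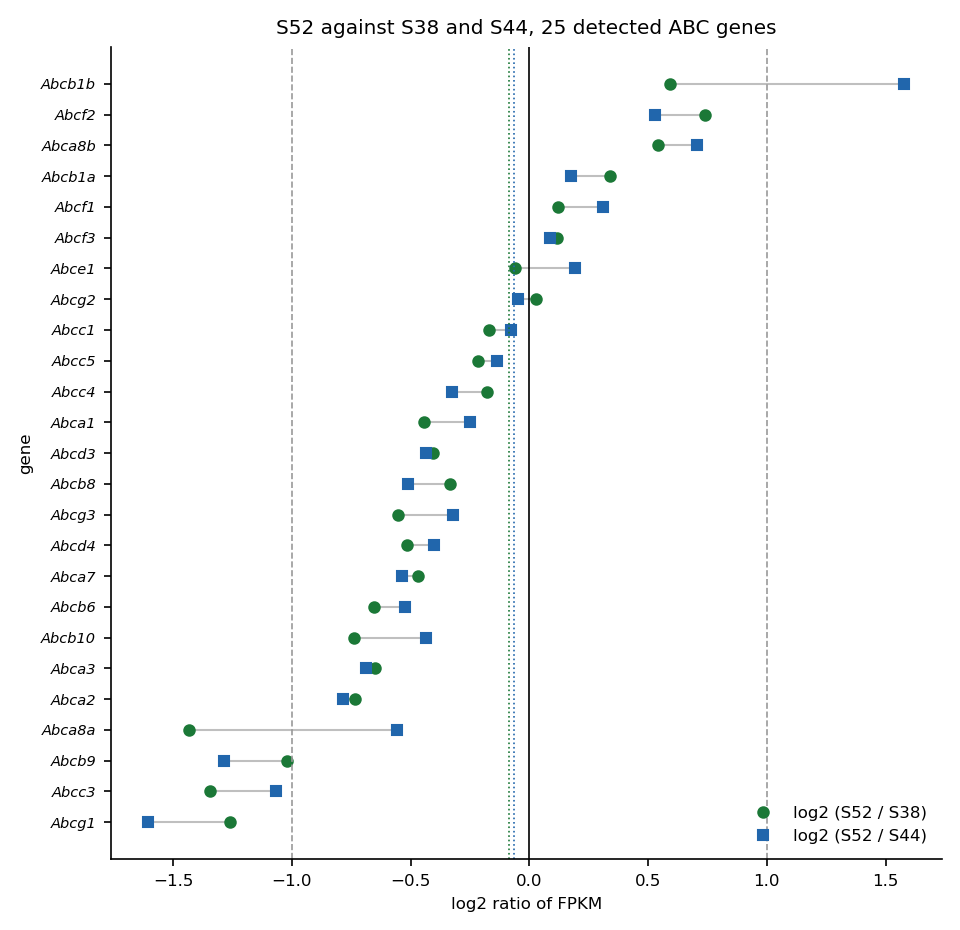
Log2 ratio of FPKM in S52 to S38 (circles) and to S44 (squares) for 25 of the 27 detected ABC genes, joined per gene and ordered by their mean. Dotted lines are the medians over all detected genes, -0.09 and -0.06, and dashed lines a 2-fold difference. *Abcg1*, *Abcc3* and *Abcb9* lie below -1 in both ratios, and *Abcb1b* and *Abcf2* at the top.

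Some 51-base window of 22 members also occurs in another gene's transcript. The other 28 members, 14 of them detected, share none, and in 5 members over 5% of windows are shared: *Abcb6* (90.2%), *Abcb1b* (19.3%), *Abcb1a* (18.4%), *Abca3* (14.2%) and *Abcb10* (8.22%). For *Abcb10* the partner is an antisense transcript, *Gm45890*, which has no row in the table. *Abcc3*, *Abcc5*, *Abcg1* and *Abcg2* share no window.

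Of the 3 ABC genes under other symbols, 2 lay above all 50 members. *Tap1* and *Tap2*, whose products carry peptides into the endoplasmic reticulum for class I antigen presentation, were at 62.8, 120 and 70.5 FPKM and at 84.9, 126 and 89.5 FPKM, in the order S38, S44, S52. Both means, 84.5 and 100.3 FPKM, exceeded that of *Abcg2*, the highest of the 50. As deposited, both were highest in S44 and lowest in S38. The order of S38 and S52 depends on scaling. Setting each library to the same sum multiplies S38 by 1.21 and S52 by 0.981, which puts S52 lowest for both. The 7 genes of peptide loading, *Tap1* and *Tap2* included, were all detected, with medians of 149, 221 and 149 FPKM. *Cftr*, the chloride channel of epithelia, was at 0.201 FPKM (S38), 0.0748 FPKM (S44) and 0 FPKM (S52).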

How the data were processed

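RNA of sorted adult lung ECs was poly-A selected, prepared without strand information (TruSeq) and sequenced as paired reads of 51 bp. The authors deposited FPKM per gene symbol on mm10. The submitters' processing notes name bcl2fastq 2.17, FastQC 0.11.5, Trimmomatic 0.36, TopHat2 2.1.0 and Cufflinks 2.2.1 without their roles, and the paper's methods describe STAR and HTSeq for counts. The tool and annotation behind the FPKM values are not given in the sources used here. Values were read as deposited, with 0 per-sample columns left out.

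Members, role lists, partner lists and markers were chosen with earlier results of these data known. Genes named with values were members at 10 FPKM or more, the highest of each subfamily, the 5 with the largest and 3 with the smallest ratio between libraries, the 2 on either side of 1 FPKM, paralogue pairs, and members that background ties to a cell type. Others were named after their values were seen. Some members are included in the counts and sums but are not named here.

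With 1 condition there were no groups to compare, so no test was run. Library depth was estimated from low values of 7077 genes of known length, where 79.7% of 316, 77.8% of 409 and 75.4% of 187 values in S38, S44 and S52 came within 0.15 of a whole number of fragments. Fragment numbers are estimates, and limits use 3 fragments. Windows and positions came from GENCODE M21 and start windows from RefSeq GRCm38.p6, and the scripts were tested on simulated data (Python 3.11.15, numpy 2.4.6, pandas 2.3.3, matplotlib 3.10.9).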

Additional observations from a re-analysis of the deposited data

How the results depend on the processing

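Of 39 recomputed values of the main results, 31 stayed within 1.5 times the count or within 1 SD of the value as deposited. The number of detected members was 12 with a threshold of 10 FPKM, and 23 to 37 under every other alternative, including 26 to 27 without 1 library. Of the 27 detected members, 11 passed a fold of 1.5 between libraries and 1 a fold of 3. Those over 2-fold numbered 1 of the 12 at 10 FPKM or more. Among members at 0.1 FPKM or more with no library at 0 there were 11. Shares of all genes were not computed at these settings. With median-ratio scaling 5 of 27 were over 2-fold, beside 19.6% of genes, and with each library at the same sum 7, beside 27.9%. Without 1 library, members over 2-fold numbered 0 to 4, and the 0 is without S52. Of the 12 members at 10 FPKM or more, 6 were lowest in S52, against 18 of the 27 detected members. The share of all genes at that level was not computed. The median over members above 0 in every library was 5.71 FPKM, since those at 0 are left out. The mean ratio of *Abcb1a* to *Abcb1b* ran from 13.6 with a pseudocount of 1 to 24.9 without S52. The means of 24 named members all stayed within 1 SD with median-ratio scaling and with each library at the same sum. Leaving out 1 of 3 libraries cannot move a mean by 1 SD, so means without a library are no check. The same holds for the mean ratio of *Abcb1a* to *Abcb1b* without 1 library, which is among the counts above. Of 184 recomputed log2 ratios 154 stayed within 1 SD. A ratio past 2-fold could not change sign under these settings, so its sign is no check either. Setting each library to the same sum shifted all genes by 0.27 in S38 and -0.20 in S44 on the log2 scale, and median-ratio scaling by at most 0.06. No paired analysis was possible because there is only 1 group. Depth and the lack of groups limit what low members can show: values under 0.1 FPKM rest on few fragments.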
